A study of Mus musculus with 15 samples.

Results

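The 39 genes described here belong to the unfolded protein response and the integrated stress response, the programmes by which a cell answers misfolded protein in the endoplasmic reticulum (ER) and shortage of amino acids. They were chosen by gene symbol from the 24499 genes counted in each of 15 mouse liver libraries. All 39 symbols were found, and all 39 were among the 14778 genes that passed the filter on low counts. The members fall into 6 regulators, 15 ER chaperones and folding enzymes, 7 genes of ER-associated degradation (ERAD), and 11 genes known as targets of the transcription factors ATF4 and CHOP. ER chaperones and ERAD genes together are called the ER arm (22 genes) below.

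The livers came from adult male C57BL/6 mice, and the study followed chronic injury by carbon tetrachloride (CCl4) with intragastric ethanol. CCl4 was given at 0.2 ml/kg, 2 times a week for 6 weeks by intraperitoneal injection, and ethanol ran through a gastric tube for 3 weeks, reaching 25 g/kg/day at most, with or without a reduced CCl4 dose. Control mice carry the label OO, which the labels do not spell out. Libraries are named by the study's own numbers: OO at day 0 (libraries 1 and 2), CCl4 at day 0 (3 and 4), OO with chow at day 23 (5), OO with ethanol at day 23 (6), OO with chow and OO again at day 20 (12), OO with ethanol and OO at day 20 (13, 14 and 15), CCl4 with chow and CCl4 at day 20 (16 and 17), and CCl4 with ethanol and CCl4 at day 20 (18, 19 and 20). The labels add a diet marked HFD to every ethanol group and chow to every later control group, so ethanol and diet cannot be told apart. The labels do not say whether each library is a separate mouse, and the p-values therefore rest on variation from library to library only. In bulk liver, fewer cells of a type and less RNA per cell cannot be told apart.

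As background, 3 sensors sit in the ER membrane. IRE1 (encoded by Ern1) splices the mRNA of Xbp1, ATF6 is cut to release a transcription factor, and PERK (Eif2ak3) phosphorylates the translation factor eIF2. The first pair drive chaperone and ERAD genes, whereas PERK and the other eIF2 kinases slow translation in general and let ATF4 be made, which raises genes of amino acid synthesis and, with CHOP (Ddit3), of stress and cell death. Hepatocytes secrete most plasma proteins and carry a large ER, and both ethanol and CCl4 are metabolised by an enzyme in its membrane. Splicing, cleavage and phosphorylation are not visible in counts per gene.

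The libraries held from 10347844 to 28843258 reads counted to genes (median 13115579), and 16159 to 17530 genes were detected. All 10 hepatocyte markers were detected in all libraries, with summed levels of 84440 to 127400 CPM (read counts scaled to the size of the library). Libraries 6 and 12 stood apart: 19 exocrine pancreas genes summed to 187 and 206.5 CPM there and were all detected, against 6.34 to 13.9 CPM elsewhere. Library 12 is the only OO chow library of day 20, so calls of members that use it are also given with library 5, the OO chow library of day 23. Calls of further pathway genes and of marker lists are given against library 12 only. The labels give libraries 5 and 6 another study number than libraries 12 to 20. Day and study number therefore cannot be told apart between library 5 and the day 20 groups. Library 13 had the highest summed level of immediate early genes (718 CPM, against 711.5 CPM in library 16 and 127 to 355 CPM in the others) and of cytosolic heat shock genes (4115 CPM), and the lowest summed level of hepatocyte markers.

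Promoters of the members were searched for the letters by which these arms are classically told apart, and some of those that held a match are printed below. RefSeq sequences of the 250 bases before and 50 bases after the annotated start (GRCm38.p6) were matched for 34 of the 39 members. The ER stress response element (ERSE), searched on both strands as CCAAT followed, after 9 bases of any kind, by CCACG, was found in 7 of 13 chaperone promoters, 2 of 6 ERAD promoters, 0 of 11 ATF4-CHOP target promoters and 0 of 4 regulator promoters, against 0.119% of the 32851 promoters searched. The related ERSE-II, ATTGG and CCACG with 1 base between them, was in Herpud1 and Dnajb11 (0.0365% of all). The core letters of the amino acid response element (TTGCATCA) were in 3 of 11 ATF4-CHOP target promoters, Atf3, Chac1 and Nupr1. They were also in 1 of 6 ERAD promoters, that of Herpud1 (0.895% of all). Those of an element bound by XBP1 (TGACGTGG) were in no member (0.676% of all). Capitals mark the matches, which read CGTGG to ATTGG where the ERSE lies on the opposite strand.
Hspa5: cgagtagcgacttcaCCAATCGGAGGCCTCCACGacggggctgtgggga
Hsp90b1: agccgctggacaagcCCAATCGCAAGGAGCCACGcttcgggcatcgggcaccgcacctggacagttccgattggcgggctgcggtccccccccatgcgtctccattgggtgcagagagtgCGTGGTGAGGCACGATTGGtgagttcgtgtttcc
Creld2: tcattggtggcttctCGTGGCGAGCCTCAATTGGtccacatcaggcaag
Derl3: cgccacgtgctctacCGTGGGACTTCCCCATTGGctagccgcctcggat
Herpud1: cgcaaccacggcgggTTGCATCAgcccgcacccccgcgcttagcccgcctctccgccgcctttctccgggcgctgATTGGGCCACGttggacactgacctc
Atf3: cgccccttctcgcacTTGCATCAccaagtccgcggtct
Chac1: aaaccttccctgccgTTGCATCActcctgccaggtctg
Nupr1: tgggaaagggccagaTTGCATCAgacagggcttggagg
The stretches lie at chr2:34772010-34772058 (Hspa5, plus strand), chr10:86705518-86705671 (Hsp90b1, minus), chr15:88819505-88819553 (Creld2, plus), chr10:75893227-75893275 (Derl3, plus), chr8:94386302-94386402 (Herpud1, plus), chr1:191183421-191183458 (Atf3, minus), chr2:119351034-119351071 (Chac1, plus) and chr7:126625558-126625595 (Nupr1, minus). Hsp90b1 holds 2 ERSE matches in opposite orientation. Herpud1 is the member with letters of both kinds in its window. A match describes the sequence only, and 5 chaperones with a promoter (Dnajb9, P4hb, Pdia3, Pdia4 and Sdf2l1) did not hold these letters in this window. Most ATF4-CHOP targets held none of the searched letters either: Asns, Ddit3, Gdf15, Phgdh, Ppp1r15a, Psat1, Sesn2 and Trib3. The same was true of the ERAD genes Derl2, Edem1 and Sel1l and the regulators Atf4, Eif2ak3, Ern1 and Xbp1.

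Most ER arm genes stood at higher median levels than the ATF4-CHOP targets. On the scale of CPM per kilobase of exon, the median over libraries was 720 for P4hb, the beta subunit of prolyl 4-hydroxylase and a protein disulfide isomerase, and 336 for Hspa5, the ER chaperone BiP. The median member of the chaperone list stood at 85.9, of the ERAD list at 28.3 and of the regulators at 16.4. ATF4-CHOP targets had median levels of 0.406 to 8.82, the lowest being Phgdh and the highest Gdf15, and in the ER arm Derl3 (1.51) and Syvn1 (5.44) lay within that range. Several targets therefore rest on few reads: Psat1 had 6 reads in library 12 and 17 in library 5, and Phgdh had 4 to 15 reads in the 3 OO ethanol libraries of day 20.

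How much a member varied among libraries of 1 group differed widely. P4hb had a within-group standard deviation of 0.0605 on the log2 scale, a spread in the lowest 0.589% of all tested genes, whose median was 0.252. At the other end, Atf3, a stress-induced transcription factor, had a standard deviation of 1.57 and Chac1, a glutathione-degrading enzyme, 1.34. Creld2, an ER stress-induced disulfide isomerase, and Derl3, an ERAD channel component, had 0.82 and 0.90. A difference of the same size was therefore far easier to detect in P4hb than in these genes.

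**Figure D1:**
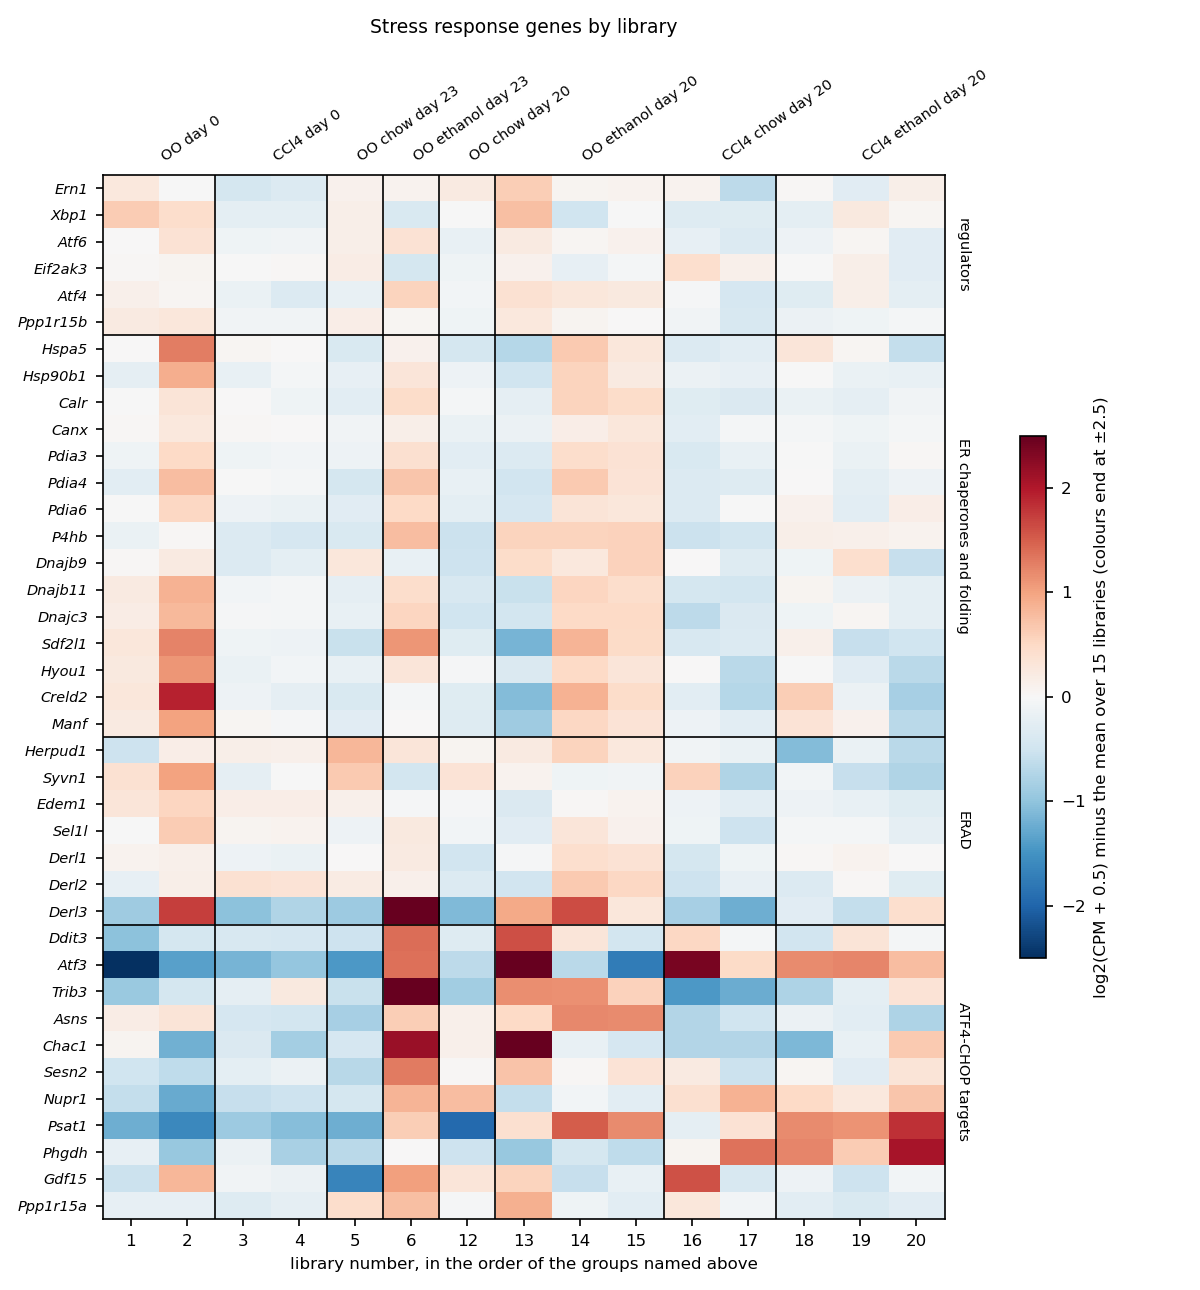
Each row is a member, each column a library ordered by group, and the colour is log2(CPM + 0.5) minus the member's mean over the 15 libraries, with the colour scale ending at 2.5 in each direction. Library 2 is high across most chaperones, library 13 is low for chaperones and high for several ATF4-CHOP targets, and library 6 is high for both.

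Single libraries dominated the chaperone pattern. Library 2, an OO liver of day 0, had the highest level of all 15 libraries for 11 of 15 chaperones and 3 of 7 ERAD genes, while it was highest for 6.27% of all tested genes. Hspa5 stood at 3397 CPM in library 2 and at 1422 CPM in library 1, its partner of the same group. Library 13 had the lowest level for 8 of 15 chaperones (10.9% of all genes were lowest there) and the highest for 4 of 11 ATF4-CHOP targets (11.6% of all genes were highest there). Within the OO ethanol group, Hspa5 was 852 CPM in library 13 against 2212 and 1700.0 CPM in libraries 14 and 15.

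Averaging the members of each arm, centred on their mean over the 15 libraries, gave 1 value per arm and library on the log2 scale. The ER arm was highest in library 2 (0.74), followed by libraries 14 (0.53), 6 (0.39) and 15 (0.34), and lowest in library 17 (-0.38). The ATF4-CHOP arm was highest in library 6 (1.29) and library 13 (0.99) and lowest in library 5 (-0.78), with libraries 1 and 2 at -0.74 and -0.75. Library 2 thus joined the highest ER arm to one of the lowest ATF4-CHOP arms, and library 13 a low ER arm (-0.28) to a high ATF4-CHOP arm. That ER arm level was not particular to library 13, since libraries 12, 16 and 20 stood at -0.28, -0.28 and -0.29. The difference between the arms ran from 1.49 in library 2 to -1.26 in library 13, a range of 2.75. The pooled within-group standard deviation was 0.575, which is not directly comparable with a range over 15 libraries. Both extremes stood apart from their own groups, with library 1 at 0.73 and libraries 14 and 15 at 0.31 and 0.41. Over the 15 libraries, which share groups and depth, the levels of both arms had Pearson's r = -0.07 and Spearman's rho = -0.28, given as a description.

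**Figure D2:**
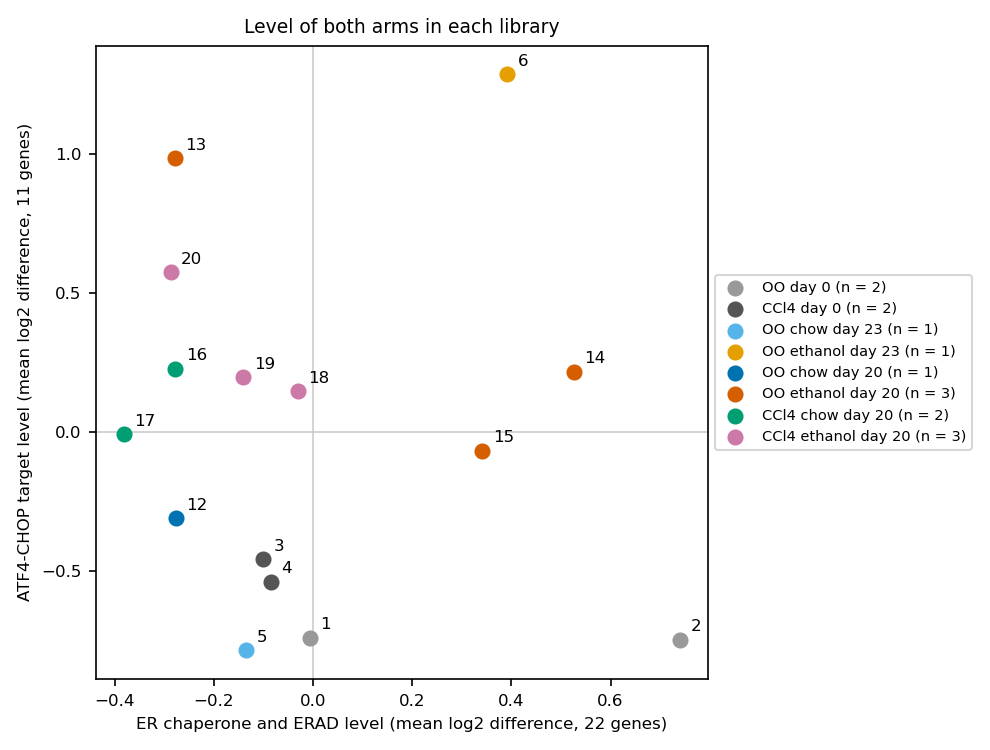
Each point is a library, coloured by group, with the mean log2 level of the 22 ER arm genes on the x axis and of the 11 ATF4-CHOP targets on the y axis, both relative to the mean over 15 libraries. Library 2 lies far to the right at a low y value, library 13 high at a low x value, and library 6 high on both axes.

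Among the regulators, Xbp1, whose spliced product drives ERAD genes, ranged from 184 CPM (library 14) to 441 CPM (library 13), both OO ethanol livers of day 20. Atf4 was 150.03 CPM in library 6 and 119.9 to 132 CPM in libraries 13 to 15, against 88.5 and 96.8 CPM in the later OO chow libraries 5 and 12. In CCl4 livers of day 20, Atf4 was 75.6 and 99.4 CPM under chow and 82.2, 113 and 84.9 CPM under ethanol, so those groups overlapped. With all libraries, edgeR called no regulator in any of the 8 comparisons below, in which a gene is called at an edgeR adjusted p under 0.05 over all 14778 genes.

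In OO livers of day 20, P4hb, Trib3 and Psat1 were called higher under ethanol than in the chow library 12. P4hb stood at 2971, 2972 and 3015 CPM in libraries 13 to 15 and at 1386 CPM in the chow library 12 (1542 CPM in library 5). Trib3, a pseudokinase that restrains AKT signalling and is a classical CHOP target, stood at 15.0, 14.6 and 9.74 CPM against 3.24 CPM. Psat1, the aminotransferase of serine synthesis, stood at 4.46, 10.2 and 7.97 CPM against 0.474 CPM. All 3 ethanol libraries lay above both later OO chow libraries for each of these genes.

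The log2 change of P4hb was 1.11 ± 0.17 (standard error; edgeR adjusted p = 0.00773), that of Trib3 2.02 ± 0.48 (adjusted p = 0.0418) and that of Psat1 3.98 ± 0.67 (adjusted p = 0.00999). These 3 of 39 members compare with 3.64% of all tested genes called in this comparison, and 1.22% called higher. With library 5 as the control, P4hb was still called (0.95, edgeR adjusted p = 0.0324), Trib3 (1.66, adjusted p = 0.151) and Psat1 (2.78, adjusted p = 0.0571) were not, and Asns, the asparagine synthetase, was (1.88, adjusted p = 0.0296). Trib3 also lost its call when library 1, 2, 3, 4, 14, 16, 17 or 19 was left out, with adjusted p of 0.0525 to 0.0749 and log2 changes of 1.92 to 2.03, and a fit of only libraries 12 to 15, in which 0.117% of all genes were called, called none of the 3 (adjusted p of 0.182 to 0.215).

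Of the remaining chaperones none was called, although all 15 had positive log2 changes, with a median of 0.46 against 0.009 over all genes. Other lists also differed from library 12. All 10 cytosolic heat shock genes had positive log2 changes (median 1.54, 2 called higher). They summed to 2660 to 4115 CPM under ethanol, 1747 CPM in library 12 and 2187 CPM in library 5. Called lower were 6 of 11 macrophage markers and 13 of 17 exocrine pancreas genes. Pancreas genes summed to 206.5 CPM in library 12, but to 9.467 CPM in library 5 and 7.563 to 13.64 CPM under ethanol. The ethanol libraries thus lay around library 5, and library 12 stood apart. Macrophage markers summed to 2026 CPM in library 12, 1228 CPM in library 5 and 701.6 to 998.5 CPM under ethanol. The part of these lists in the chaperone levels was not tested. Hspa5 differed by 0.63 (edgeR adjusted p = 0.573), Hsp90b1, the ER form of HSP90, by 0.29, Sdf2l1, a BiP cofactor, by 0.60, and Creld2 by 0.62. The single low library of the group was library 13, in which Creld2 was 25.3 CPM against 99.3 and 74.6 CPM in libraries 14 and 15 and 43.5 CPM in the chow library. Without library 13, 8 members were called, all of them higher: Dnajb11 and Dnajc3, a pair of BiP co-chaperones, Derl1 and Derl2 of the ERAD channel, Asns, P4hb, Psat1 and Trib3. In that fit 10.5% of all genes were called. Immediate early and cytosolic heat shock genes were highest in library 13, and their part in this was not tested.

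Among the ERAD genes, Derl3 stood at 9.81, 15.9 and 5.93 CPM under ethanol and at 1.98 CPM in library 12, a log2 difference of 2.42 that did not pass the test (edgeR adjusted p = 0.199). Derl1 was nearest to the threshold (0.73, adjusted p = 0.0707). Herpud1, a ubiquitin-like ER membrane protein of ERAD, was 297, 370.1 and 304.5 CPM under ethanol and 265 CPM in library 12, but 450.5 CPM in library 5, so its order against chow depended on the control library.

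Among the other ATF4-CHOP targets, Asns was 25.5, 42.0 and 41.2 CPM against 19.6 CPM (0.89, edgeR adjusted p = 0.142). Of the 3 OO ethanol libraries of day 20, library 13 had the highest Ddit3, Atf3 and Chac1. Atf3 was 83.5 CPM in library 13 and 5.43 and 2.30 CPM in libraries 14 and 15, around the 5.53 CPM of library 12. Chac1 was 30.7, 2.45 and 2.04 CPM against 3.16 CPM, and Ddit3 31.7, 12.5 and 7.17 CPM against 7.90 CPM. Their log2 differences (2.44, 1.86 and 1.10) did not pass the test. Gdf15, a secreted stress hormone, differed by -0.31, Xbp1 by 0.18 and Atf4 by 0.37, none of them called. Nupr1, a small stress-induced chromatin protein, differed by -1.23 (adjusted p = 0.108) against library 12, in which it stood at 4.11 CPM. Nupr1 stood at 4.38 CPM in library 6, the other library with pancreas genes, and at 4.45 CPM in library 17, where those genes summed to 12.7 CPM. The part of pancreas RNA in the level of Nupr1 was not tested.

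Other genes of the pathway gave few calls in the same comparison. Of 29 further ER folding and translocation genes, 27 had positive log2 changes (median 0.51) and 1 was called higher, Sil1, a nucleotide exchange factor of BiP (0.59, edgeR adjusted p = 0.0439). None of 18 further ERAD genes was called. Of 37 further ATF4 targets tested, 2 were called higher, the translation repressor gene Eif4ebp1 (0.72, adjusted p = 0.0307) and the lipoprotein receptor gene Vldlr (2.14, adjusted p = 0.0485). Of 17 further sensors and translation genes, 1 was called higher, Creb3l3, a membrane-bound transcription factor of the liver (0.87, adjusted p = 0.0343).

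At day 23 there was 1 ethanol library (6) and 1 chow library (5), so there is no replicate check. P4hb was 3433 CPM under ethanol and 1542 CPM under chow. Trib3 was 64.3 against 4.16 CPM, the highest level of Trib3 in any library, Derl3 31.2 against 2.34 CPM, Chac1 14.6 against 2.02 CPM and Ddit3 27.1 against 6.89 CPM. Of all tested genes, 5.56% were at least 2-fold higher and 5.31% at least 2-fold lower in the ethanol library. Herpud1, at 310.4 CPM under ethanol and 450.5 CPM under chow, was among the members that stood lower, by less than 2-fold (log2 difference -0.54). Syvn1, the ERAD ubiquitin ligase, was lower by more than 2-fold (20.0 and 44.3 CPM, -1.14). Library 6 carries the pancreas genes named above and library 5 does not, and their part in these differences was not tested.

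P4hb also rose with ethanol in CCl4 livers. P4hb stood at 2217, 2195 and 2138 CPM in libraries 18 to 20 and at 1391 and 1457 CPM in the chow libraries 16 and 17, with no overlap. The log2 change was 0.62 ± 0.13 (edgeR adjusted p = 0.0474), the only call among the 39 members, where 1.27% of all genes were called and 0.501% called higher. The value barely moved when a library was left out (0.58 to 0.68), but the call was lost without any 1 of libraries 1 to 4, 12 and 14 to 20 (adjusted p of 0.0525 to 0.333), and without a filter on low counts (adjusted p = 0.0916).

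Psat1 and Trib3 also did not overlap between ethanol and chow in CCl4 livers, although neither was called with all libraries. Psat1 was 7.97, 7.60 and 12.8 CPM against 2.71 and 4.32 CPM (1.42, edgeR adjusted p = 0.119, and 0.0414 without library 13), and Trib3 was 3.54, 5.27 and 8.25 CPM against 2.05 and 2.39 CPM (1.33, adjusted p = 0.139). In all, 11 members lay higher without overlap, 6 of them chaperones, and 13.1% of all genes did so. Herpud1 and Ppp1r15a, a phosphatase subunit that reverses PERK signalling, lay lower without overlap (13.5% of all genes). Herpud1 was 119, 224 and 157 CPM under ethanol and 238 and 225 CPM under chow, a log2 difference of -0.48 (adjusted p = 0.509).

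None of the other members followed by name was called in CCl4 livers. The log2 differences were 0.27 for Hspa5, 0.06 for Hsp90b1, 0.11 for Sdf2l1, 0.48 for Creld2, 1.05 for Derl3, 0.35 for Xbp1, 0.09 for Atf4, -0.32 for Ddit3, -0.65 for Atf3, 0.27 for Asns, 0.79 for Chac1 and -1.16 for Gdf15. Atf3 and Gdf15 were highest in the chow library 16 (48.3 and 54.6 CPM), the other library with high immediate early genes. Whether these levels go together was not tested. Among the further pathway genes, Vldlr was called higher (2.67, edgeR adjusted p = 0.0111) and no other gene of the 4 lists was.

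P4hb, Derl3 and Psat1 were the members that separated all 7 ethanol libraries from all 4 later chow libraries, where 2.23% of all genes lay higher without overlap. P4hb ranged from 2138 to 3433 CPM (median 2971) under ethanol and from 1386 to 1542 CPM under chow. Derl3 ranged from 3.00 to 31.2 CPM against 1.79 to 2.49 CPM, and Psat1 from 4.46 to 12.8 CPM against 0.474 to 4.32 CPM. These libraries include those tested above, so the separation is not separate evidence.

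Whether ethanol acted differently in OO and CCl4 livers was tested directly, with 0 of 39 members called and 0.0135% of all genes. Unadjusted p fell under 0.05 for 2 members, P4hb and Psat1, a count without the share of all genes and so not a result about the members. The difference was -0.49 for P4hb (95% interval -0.95 to -0.04, edgeR adjusted p = 0.543). For Psat1 it was -2.57 (-4.23 to -0.90, adjusted p = 0.287), and DESeq2 called no member. For Herpud1 the difference of the changes was -0.76 (adjusted p = 0.701). The intervals of Hspa5 (-1.81 to 1.10) and Trib3 (-1.97 to 0.59) leave room for sizeable differences in either direction.

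**Figure D3:**
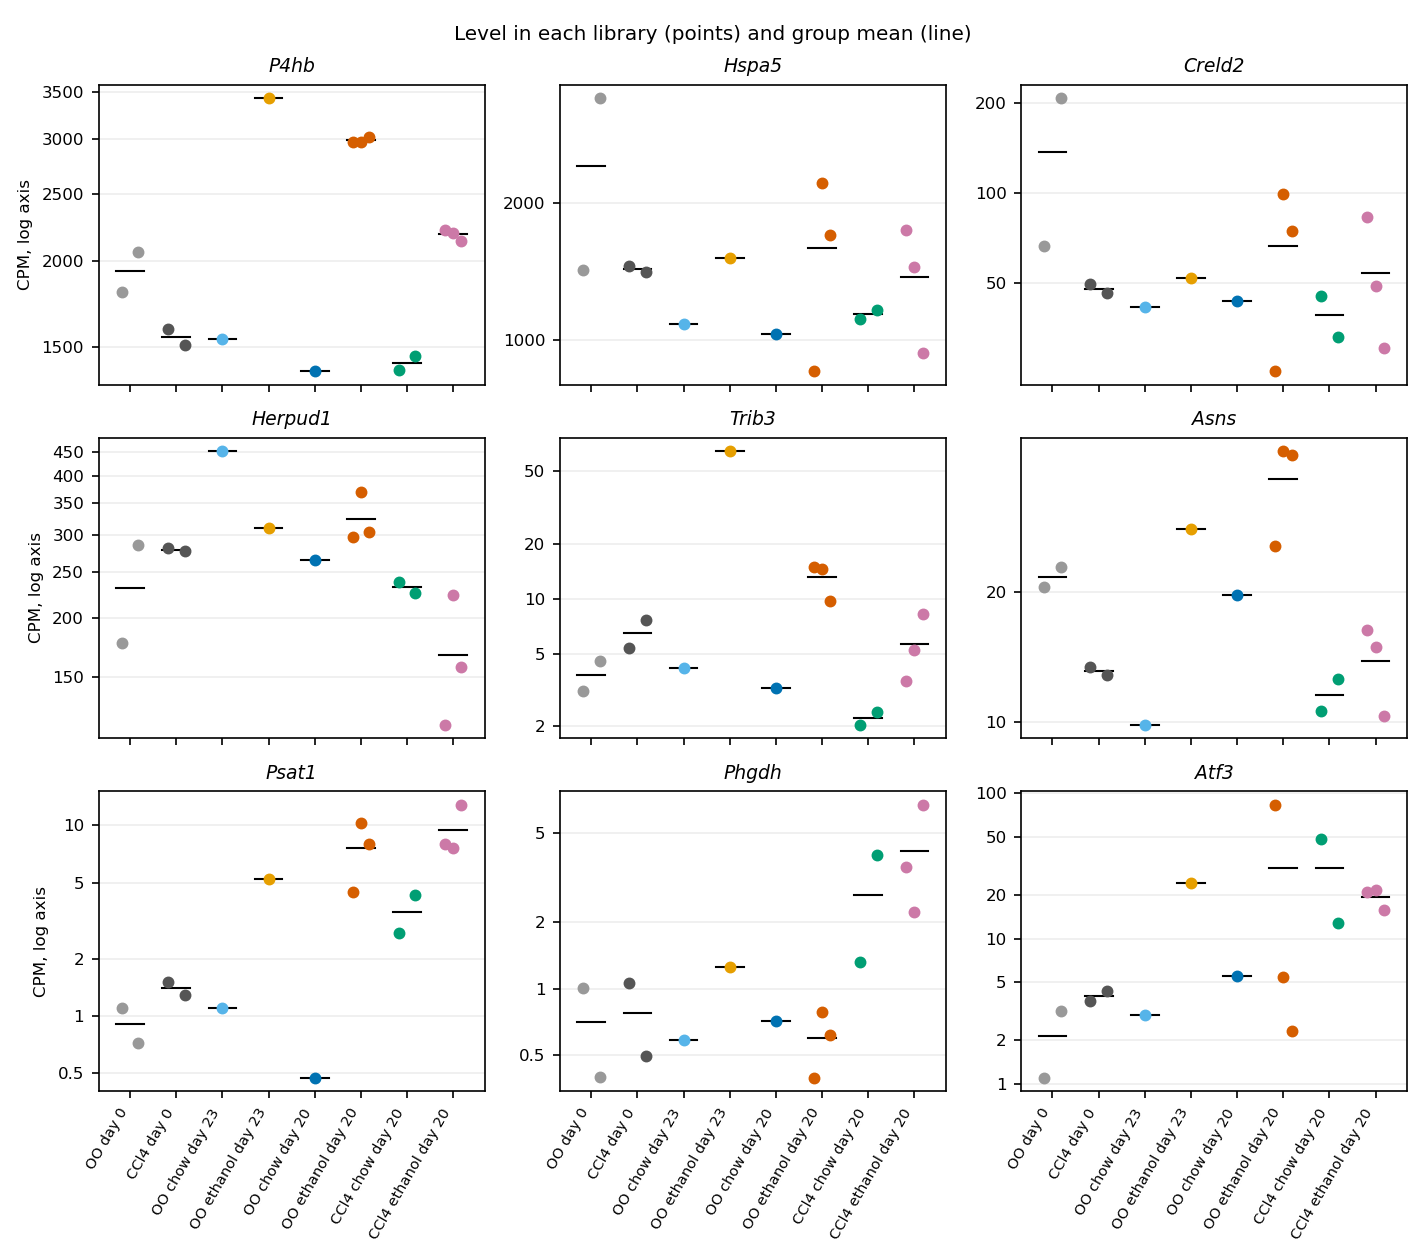
CPM on a log axis for 9 members in the 8 groups, each point a library and each line the group mean. P4hb has tight groups, at 2971 to 3015 CPM under OO ethanol, 2138 to 2217 CPM under CCl4 and ethanol and 1386 to 1542 CPM in later chow livers, whereas Atf3 under OO ethanol spans 2.30 to 83.5 CPM.

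CCl4 under ethanol gave the largest number of called members of the 8 comparisons as fitted. In livers given both agents compared with OO livers given ethanol, 6 of 39 members changed, 4 lower and 2 higher, where 23.7% of all genes were called (12.7% higher and 11% lower). The share of members called was thus below that of all genes. All 22 genes of the ER arm had negative log2 changes, with a median of -0.33 against -0.04 over all genes. The averaged ER arm nevertheless overlapped between the groups. It stood at -0.28, 0.53 and 0.34 in libraries 13 to 15 and at -0.03, -0.14 and -0.29 in libraries 18 to 20. This comparison and the ethanol comparisons share libraries, so their values are not independent.

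Asns showed the most significant change among the members. It stood at 16.3, 14.9 and 10.3 CPM in libraries 18 to 20 and at 25.5, 42.0 and 41.2 CPM in libraries 13 to 15, and fell by 1.38 on the log2 scale (standard error 0.21, edgeR adjusted p = 0.00093). Trib3 stood at 3.54, 5.27 and 8.25 CPM against 15.0, 14.6 and 9.74 CPM and fell by 1.23 (standard error 0.29, adjusted p = 0.0106). In both genes every library with both agents lay below every library with ethanol alone, as in 17.4% of all genes, while 18.8% lay above without overlap. Both calls held in every alternative run, with log2 changes of -1.58 to -1.22 for Asns and -2.23 to -0.97 for Trib3.

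In the ER arm, P4hb and Herpud1 fell. P4hb, at 2138 to 2217 CPM against 2971 to 3015 CPM, fell by 0.45 (standard error 0.11, edgeR adjusted p = 0.0147). Its adjusted p was 0.0507 without library 15, 0.0534 without a filter on low counts and 0.106 in a fit of these 6 libraries alone. Herpud1, at 119, 224 and 157 CPM against 297, 370.1 and 304.5 CPM, fell by 0.96 (standard error 0.23, adjusted p = 0.0107). The other chaperones named were not called, with log2 differences of -0.21 for Hspa5, -0.28 for Hsp90b1, -0.57 for Sdf2l1 and -0.30 for Creld2, nor were Derl3 (-1.27), Xbp1 (-0.14) and Atf4 (-0.42, adjusted p = 0.0574). Atf4 was called lower in DESeq2 (adjusted p = 0.0451), in limma-voom (0.0410), with both OO groups merged over days (0.0176), and without library 16 (0.0448) or 19 (0.0120). Derl3 was called lower without library 1 (0.0337) or 2 (0.0346) and with both OO groups merged (-1.85, adjusted p = 0.0339).

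Phgdh and Nupr1 rose. Phgdh, the dehydrogenase that opens the serine pathway, stood at 3.54, 2.21 and 6.74 CPM against 0.396, 0.783 and 0.620 CPM and rose by 2.71 (standard error 0.57, edgeR adjusted p = 0.0059), on 36 to 84 reads a library against 4 to 15. Nupr1, at 3.33, 2.76 and 3.87 CPM against 1.29, 2.09 and 1.77 CPM, rose by 0.92 (standard error 0.29, adjusted p = 0.0389). The Nupr1 call was lost without library 3, 4, 13, 15, 18 or 20 (adjusted p of 0.0578 to 0.118), in DESeq2 (adjusted p = 0.061) and with libraries 6 and 5 merged into the OO groups (adjusted p = 0.468). Psat1, whose enzyme follows PHGDH in the same pathway, was high in both groups (7.60 to 12.8 and 4.46 to 10.2 CPM) and was not called.

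Phgdh was also the member that separated all 5 CCl4 libraries of day 20 (1.32 to 6.74 CPM, median 3.54) from all 8 OO libraries (0.396 to 1.24 CPM), where 6.67% of all genes lay higher without overlap. The gap was narrow, between library 16 (1.32 CPM, 18 reads) and library 6 (1.24 CPM, 33 reads). The CCl4 libraries of day 0 stood at 1.06 and 0.494 CPM, within the OO range. Markers of other cells moved with Phgdh. The summed level of 7 cholangiocyte markers was 421.5 to 635 CPM in libraries 18 to 20 against 43.8 to 71.5 CPM in libraries 13 to 15, with 3 of 7 called higher, and 8 of 11 macrophage markers tested and 7 of 12 stellate and myofibroblast markers were called higher. In the CCl4 chow livers, library 17 had more Phgdh than library 16 (3.98 and 1.32 CPM) and more cholangiocyte marker RNA (346 and 99.4 CPM). Its summed macrophage (2313 and 1616 CPM) and stellate (2653 and 1829 CPM) markers were higher too. Library 19 had less Phgdh than library 18 (2.21 and 3.54 CPM) but more cholangiocyte marker RNA (567 and 421.5 CPM), while library 20 had the most of both in that group. In OO library 1, cholangiocyte markers summed to 205.7 CPM with Phgdh at 1.01 CPM. The part of these cells in the level of Phgdh was not tested.

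Without library 13, 12 members were called in this comparison, 10 lower and 2 higher, where 27% of all genes were called. The ER arm then held 8 of them, the lower P4hb, Calr, Dnajb11, Dnajc3, Sdf2l1, Derl1, Derl2 and Herpud1. Atf3 turned from -0.63 (edgeR adjusted p = 0.678) to 2.27 (adjusted p = 0.0127), since it stood at 15.7 to 21.5 CPM with both agents and at 5.43 and 2.30 CPM in libraries 14 and 15. Chac1 (-2.11), Ddit3 (-0.81) and Gdf15 (-0.24) were not called with all libraries.

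Among the further pathway genes, 6 of 18 ERAD genes were lower in this comparison and 0 higher, with a median log2 change of -0.32. The 3 with the smallest adjusted p were Vcp, the ATPase that extracts proteins from the ER (-0.55, edgeR adjusted p = 0.00732), Aup1 (-0.62, adjusted p = 0.0151) and Edem2 (-0.50, adjusted p = 0.0172). Of 29 further folding genes 2 were lower, Sil1 (-0.68, adjusted p = 0.000663) and the disulfide isomerase gene Pdia5 (-0.40, adjusted p = 0.0184). Further ATF4 targets went both ways, 6 higher and 7 lower of 37, among them the death receptor gene Tnfrsf10b (1.70, adjusted p = 0.0032), the mitochondrial serine enzyme gene Shmt2 (-0.78, adjusted p = 0.00108) and the amino acid transporter subunit gene Slc3a2 (-0.50, adjusted p = 0.00865). Of 17 further sensors and translation genes 3 were lower, Creb3l3 (-0.55, adjusted p = 0.0114), the heme-regulated eIF2 kinase gene Eif2ak1 (-0.51, adjusted p = 0.0274) and Eif2b5 (-0.45, adjusted p = 0.0367).

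**Figure D4:**
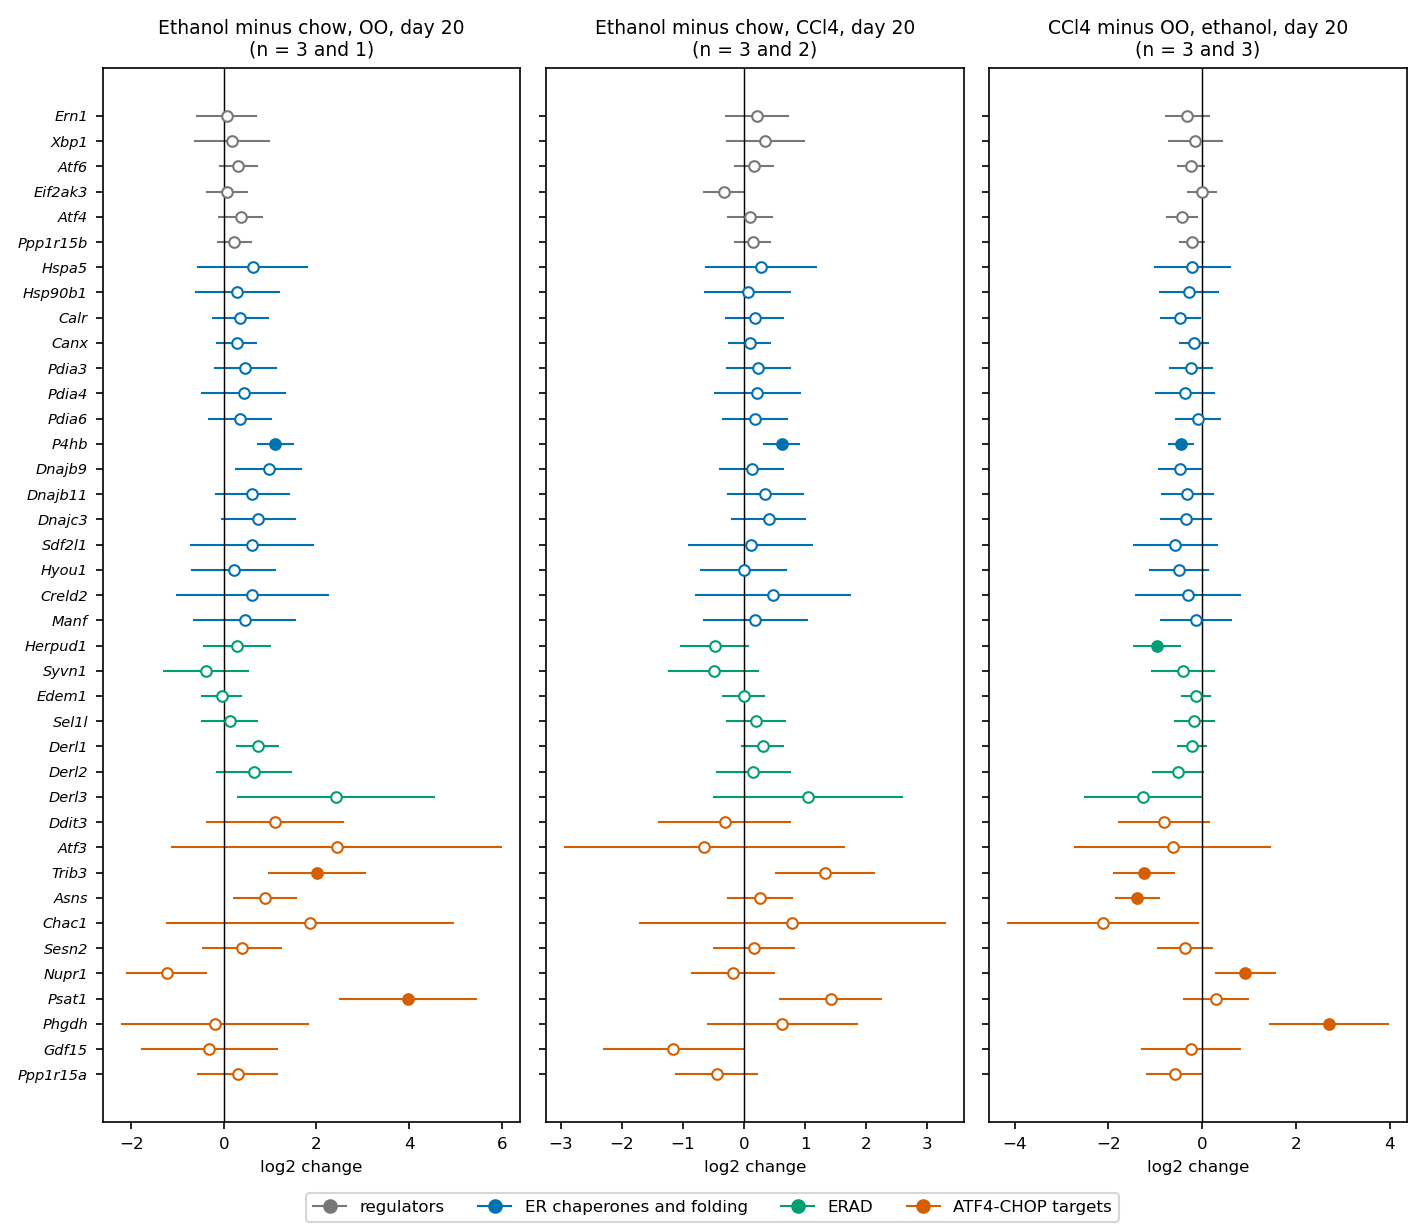
Log2 change of each member with its 95% interval in 3 comparisons, with filled points for members called at an edgeR adjusted p under 0.05. In OO livers P4hb, Trib3 and Psat1 lie to the right under ethanol, in CCl4 livers P4hb does, and in the comparison of both agents with ethanol alone Asns, Trib3, Herpud1 and P4hb lie to the left and Phgdh and Nupr1 to the right.

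Livers given both agents were also compared with the OO chow library 12. Psat1 was called (4.29 ± 0.67, edgeR adjusted p = 0.00678), the only call of 39 members, where 2.8% of all genes were called, and limma-voom did not call it (adjusted p = 0.0609). P4hb differed by 0.66 (adjusted p = 0.0656). P4hb was called higher in DESeq2 (0.68, adjusted p = 4.35e-06), without library 13 (0.66, adjusted p = 0.0454), with the OO chow days merged (0.58, adjusted p = 0.0126) and with both OO groups merged (0.58, adjusted p = 0.0132). Herpud1 differed by -0.67 (adjusted p = 0.277). With library 5 as control, Herpud1 was called lower (-1.44, adjusted p = 0.0164) beside Psat1. Asns differed by -0.49, Trib3 by 0.78, Hspa5 by 0.42 and Creld2 by 0.32, none of them called. The further ATF4 target gene Mthfd1l, a mitochondrial folate enzyme, was called higher (2.05, adjusted p = 0.0328).

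No member was called for CCl4 under chow against library 12 in edgeR, where 0.189% of all genes were called. Unadjusted p was under 0.05 for 2 members, Psat1 (2.87, edgeR adjusted p = 0.23) and Asns (-0.76, adjusted p = 0.66). That count also stands without the share of all genes. DESeq2 called Psat1, where it called 0.822% of all genes. Psat1 stood at 2.71 and 4.32 CPM against 0.474 CPM in library 12 and 1.11 CPM in library 5. Herpud1 differed by -0.20, Hspa5 by 0.14, Trib3 by -0.54 and Atf3 by 2.46, none of them called. The 95% interval of Hspa5 ran from -1.06 to 1.35.

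After 6 weeks of CCl4 alone, at day 0, no member was called by edgeR or by DESeq2, where edgeR called 2.06% of all genes. Unadjusted p was under 0.05 for 8 members, but the share of all genes under that level is not given here. The count is therefore not a result about the members. Of 22 ER arm genes 20 had negative log2 differences (median -0.42, all genes 0.008), and of 11 ATF4-CHOP targets 7 had positive ones (median 0.31). Without library 2, 15 of 22 ER arm genes were negative with a median of -0.14, and with library 2 but without library 1, 21 of 22 with a median of -0.73. The averaged ER arm stood at -0.10 and -0.09 in the CCl4 libraries and at -0.01 and 0.74 in OO libraries 1 and 2. Creld2 was 49.5 and 46.2 CPM after CCl4 and 66.2 and 208 CPM in OO livers (-1.52, edgeR adjusted p = 0.245), and Derl3 was 2.13 and 2.67 CPM against 2.39 and 17.2 CPM (-2.05, adjusted p = 0.183). Hspa5 was 1449.5 and 1409 CPM against 1422 and 3397 CPM (-0.75), and without library 2 its difference was 0.01.

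Xbp1 showed the regulators' pattern at day 0 without resting on library 2. It stood at 220.0 and 219.5 CPM after CCl4 and at 407 and 356 CPM in OO livers, a log2 difference of -0.80 (edgeR adjusted p = 0.219) and of -0.89 without library 2. Xbp1 was called without library 13 (-0.80, adjusted p = 0.0422). Of the 6 regulators 5 lay lower without overlap, as did 9 of 15 chaperones, where 29% of all genes did. Higher without overlap lay 6 of 11 ATF4-CHOP targets (30.5% of all genes), among them Trib3, at 5.38 and 7.61 CPM against 3.12 and 4.55 CPM (0.74, adjusted p = 0.361). Asns lay lower, at 13.4 and 12.9 CPM against 20.5 and 22.8 CPM (-0.72, adjusted p = 0.181). Hsp90b1 (-0.57), Sdf2l1 (-0.97), Herpud1 (0.27), Atf4 (-0.34), Ddit3 (0.31), Atf3 (0.87), Chac1 (-0.13) and Gdf15 (-0.43) were not called.

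When only the 4 libraries of day 0 were fitted, 17.2% of all genes were called and 11 members, all of them lower: Asns, Atf4, Creld2, Dnajb11, Dnajb9, Ern1, Hyou1, Ppp1r15b, Sdf2l1, Syvn1 and Xbp1. In that fit the spread came only from libraries 1 and 2 and from libraries 3 and 4. The latter pair was much closer (chi-square per degree of freedom of 3.93 against 28.9). Summed acute phase genes moved in the same direction, at 28450 and 29020 CPM in the CCl4 libraries against 58000 and 91460 CPM in the OO libraries, with 8 of 13 called lower in the fit of all libraries. Their part in the members' levels was not tested. Of the further pathway genes Mthfd1l was called, and it was higher (1.71, edgeR adjusted p = 0.0312).

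CCl4 livers on chow at day 20, whose labels list CCl4 again in the second phase, differed from CCl4 livers of day 0 in 2 members, where 11.5% of all genes were called, 7.27% higher and 4.2% lower. Nupr1 stood at 3.07 and 4.45 CPM against 1.31 and 1.38 CPM and was higher by 1.48 ± 0.37 (edgeR adjusted p = 0.0267). Trib3 stood at 2.05 and 2.39 CPM against 5.38 and 7.61 CPM and fell by 1.53 (standard error 0.40, adjusted p = 0.0312). The calls were lost without library 3, 4 or 17, with adjusted p of 0.0834 to 0.185, and that of Trib3 also without library 16 (adjusted p = 0.143). Atf3, at 48.3 and 12.8 CPM against 3.69 and 4.35 CPM, differed by 2.93 and was not called (adjusted p = 0.181), and Psat1 differed by 1.32 (adjusted p = 0.0832). Without library 13, 5 members were called, Atf3 (2.93, adjusted p = 0.0101), Derl2 (-0.72, adjusted p = 0.0178), Nupr1, Psat1 and Trib3, where 15.8% of all genes were called. Markers of other cells moved as well: 11 of 11 macrophage, 8 of 8 neutrophil, 4 of 12 stellate and myofibroblast and 7 of 13 acute phase genes were called higher, and 4 of 10 hepatocyte markers lower. Their part in the members' levels was not tested.

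No chaperone was called over that time, with a median log2 difference of -0.21. Hspa5 differed by -0.33 and Creld2 by -0.30, Derl2 by -0.72 (edgeR adjusted p = 0.155) and Asns by -0.18. Of 37 further ATF4 targets 4 were higher and 2 lower, of 29 folding genes 1 was lower and of 17 sensors and translation genes 1 was higher. Of those named, Tnfrsf10b (2.33, adjusted p = 0.00479), the proline synthesis gene Aldh18a1 (1.56, adjusted p = 0.0348) and the antiviral eIF2 kinase gene Eif2ak2 (0.58, adjusted p = 0.0274) were higher, and the cystathionine lyase gene Cth (-1.43, adjusted p = 0.00698) and Sil1 (-0.49, adjusted p = 0.0233) were lower.

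The genes that carried calls lie, in GRCm38 coordinates of the GENCODE M21 annotation, at chr11:120560298-120573253 (P4hb), chr19:15904678-15947337 (Psat1), chr2:152337422-152344032 (Trib3), chr6:7675169-7693254 (Asns), chr3:98313170-98339990 (Phgdh) and chr7:126623249-126630861 (Nupr1), all on the minus strand, and at chr8:94386438-94395377 (Herpud1, plus strand). Of the 39 members 12 share exon bases with another annotated gene, 3 of them on the same strand, and none of these 7 does. Ddit3 overlaps Mars on the opposite strand, and since strand use in the counting is not given in the sources used here, reads of Ddit3 and Mars cannot be told apart there.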

How the data were processed

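Liver RNA of 15 libraries in 8 groups was sequenced from Illumina TruSeq mRNA libraries. Per the submitters' processing notes, the authors aligned reads with GSNAP to mm10 and used DESeq2 1.12.3. The deposited tables hold whole-number read counts per gene symbol, while the sources used here name no counting program, annotation or strand setting. The 5 closing entries of each table, reads given to no gene, were left out. Reads counted to genes made up 41.4% to 53.0% of the listed reads, and 18.1% to 28.8% had aligned to several places, so depth sets the precision of low genes. No replicate pair agreed within counting noise. The chi-square per degree of freedom was 3.93 for libraries 3 and 4, CCl4 at day 0, and 19.4 to 78.4 for all other pairs. The labels do not say whether libraries 3 and 4 come from separate mice.

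Members and lists were chosen with earlier results of these data known. Counts of all genes were filtered (filterByExpr), scaled by TMM and fitted with edgeR 4.0.16 (R 4.3.3) by its quasi-likelihood test over 8 group means, with 7 residual degrees of freedom. Adjusted p-values are Benjamini-Hochberg over 14778 genes, and a standard error is the log2 change divided by the root of the F statistic. The interaction is the ethanol change in CCl4 livers minus that in OO livers. Alternatives were DESeq2's scaling (RLE), testing unfiltered genes, keeping genes at 1 CPM in at least 2 libraries, DESeq2 1.42.0, limma-voom 3.58.1 with the lane as block, other control groupings and each library left out. Fits without libraries 6 and 12, and with library 5 as control and no library 13, were added after seeing the data. Arm levels are means of log2 CPM (prior count 2), and summed marker levels are CPM without TMM. Named members are those called, the 2 of each list with the smallest adjusted p, and 14 followed throughout; named pathway genes are up to 3 called per list. The scripts were tested on simulated data. Promoters of 5 members were not used here.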

Additional observations from a re-analysis of the deposited data

Results flagged for a closer look

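Herpud1 moved in opposite directions under ethanol in OO and CCl4 livers of day 20 in all libraries. The ethanol libraries stood at 297, 370.1 and 304.5 CPM against 265 CPM in OO livers, and at 119, 224 and 157 CPM against 238 and 225 CPM in CCl4 livers. The difference of the 2 log2 changes was -0.76 and did not pass the interaction test (edgeR adjusted p = 0.701), and the OO chow library of day 23 (450.5 CPM) lay above all ethanol libraries.

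Trib3 lay higher with CCl4 than with OO at day 0 in all libraries (5.38 and 7.61 against 3.12 and 4.55 CPM) and lower with CCl4 than with OO under ethanol at day 20 in all libraries (3.54 to 8.25 against 9.74 to 15.0 CPM). The log2 changes, 0.74 and -1.23, differ by -1.97, and this difference was not tested.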

How the results depend on the processing

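Counts of called members shifted with the fit. A fit of only the libraries compared called 11 members at day 0 (17.2% of all genes), 0 under ethanol in OO livers (0.117%), 0 under ethanol in CCl4 livers (0.713%), 2 for CCl4 under chow (2.68%) and 5 for CCl4 chow livers of day 20 against day 0 (17.3%). DESeq2 called 6 for ethanol in OO livers (6.95% of all genes) and 3 for ethanol in CCl4 livers (2.79%). It called 1 for CCl4 under chow (0.822%) and 2 for both agents against OO chow (5.8%). With the lane as block, limma-voom called 1 for ethanol in OO livers (3.97%) and 0 for both agents against OO chow (1.87%). It called 1 for CCl4 chow livers of day 20 against day 0 (11.4%). Ethanol in CCl4 livers gave 0 with no filter (1.29%) and 0 without libraries 6 and 12 (1.16%). Merging the OO chow days gave 4 for both agents against OO chow (10.7%). Merging both OO groups gave 4 there (10.4%) and 5 for ethanol in OO livers (7.96%). Library 5 as control gave 2 for both agents (6.73%). Leaving out 1 library at a time gave 0 to 1 member at day 0 (0.353% to 4.56% of all genes), 2 to 8 for ethanol in OO livers (1.71% to 10.5%), 0 to 2 for ethanol in CCl4 livers (0.333% to 2.17%), 4 to 12 for CCl4 under ethanol (15.1% to 27%), 1 to 2 for both agents against OO chow (1.51% to 5.19%) and 0 to 5 for day 20 against day 0 (1.78% to 15.8%), the highest without library 13 in each, where day 0 gave 1 also without library 1. Comparisons with library 12 could not be computed without it. The interaction and, outside the 2 settings above, CCl4 under chow gave 0 in every alternative. Where 1 library is a group's only one, it is assumed to vary like the others. Of 3573 alternatives of single named values, 3470 matched the main fit, a number that includes values called in neither fit. A call was gained in 51 and lost in 51, and losses could occur only for values called in the main fit. In 1 the direction reversed: Atf3 for CCl4 under ethanol, -0.63 with all libraries, ran from -1.18 without library 15 to 2.27 without library 13. Among uncalled values, 95 changed sign. The cause was not tested. No paired analysis was possible because no library number recurs between groups.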
